A study of Mus musculus with 8 samples.

Results

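The 37 genes described here encode enzymes that place acetyl groups on histones, enzymes that remove them and proteins that bind them. They were chosen by gene name and role, and not by their values, as 10 acetyltransferases, 8 zinc-dependent deacetylases other than Hdac1 and Hdac2, 7 sirtuins, 7 Brd proteins, and Bptf with 4 Baz proteins, and they are 37 of the 19920 genes that the arrays measured with a probe set of exactly 1 gene symbol. All 37 were measured, by 39 probe sets in all, and Hdac4 and Bptf had 2 probe sets each, of which the brighter over all arrays stands for the gene. Acetyltransferases transfer the acetyl group of acetyl-CoA to lysines of histone tails, which loosens the contact of the tails with DNA and makes binding sites for bromodomains. Zinc-dependent deacetylases and the NAD-dependent sirtuins take the group off again, although several sirtuins work mainly on proteins of the cytoplasm or of mitochondria. In the testis, histones become heavily acetylated in elongating spermatids before transition proteins and protamines replace them, and the testis-specific bromodomain protein Brdt binds the acetylated histones at this step.

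Ing2 is a subunit of Sin3 corepressor complexes that hold the deacetylases HDAC1 and HDAC2 and that it tethers to trimethylated lysine of histone tails. The study asked what its loss does in mice, and the arrays described here measured gene expression in the testis. RNA of whole testes came from 3 Ing2+/+ and 5 Ing2-/- mice, littermates of 2 to 3 months, with 1 Affymetrix Mouse Gene ST array for each mouse. The null allele lacks exon 2 of Ing2 and was made from targeted embryonic stem cells by germline deletion with an EIIa-Cre transgene. It was bred to C57BL/6J mice to remove the transgene. Ing2-/- animals thus carry the null allele in every cell and not in germ cells alone. Values are RMA-normalized log2 levels as deposited, and a difference is always Ing2-/- minus Ing2+/+ on the log2 scale. Ing2 itself averaged 7.46 ± 0.13 (SD, n = 3) in Ing2+/+ and 5.29 ± 0.22 (SD, n = 5) in Ing2-/- testes, and no array went against its label. The exons that its probe set reads are not known here, so the level need not be that of the deleted exon. The 8 arrays had medians from 6.41 to 6.53. Ing2-/- replicate 3 stood apart, with a mean correlation of 0.983 with the other Ing2-/- arrays where the other 4 had 0.990 to 0.992. The table has no detection calls, so the median over unnamed probe sets, 5.47 to 5.51 for the Ing2+/+ and 5.54 to 5.62 for the Ing2-/- arrays, served as a mark of background. By that mark Hdac8 was the only member whose mean was not shown to be above background, and only in the Ing2-/- group.

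Sirt5, a mitochondrial sirtuin, was the only member that changed by the test across all probe sets, and it fell by 0.35 on the log2 scale in Ing2-/- testes. No member was called higher. Hdac3 (0.35), Brd2 (-0.23) and Baz2b (-0.25) came next by p, with every Ing2-/- array on 1 side of every Ing2+/+ array and adjusted p-values from limma of 0.0562, 0.0612 and 0.0733. Limma thus called 0 members higher and 1 lower, or 2.70% of the 37, where it called 4.97% of all 19920 genes in either direction and 3.01% lower. An unadjusted p under 0.05 was reached by 5 members higher and 5 lower, 27.0% of the members against 30.0% of all genes. The arrays of the groups did not overlap for 12 members, 7 higher and 5 lower in Ing2-/-, which is 32.4% against 31.6% of all genes. The share of members past each of these marks was thus near or under the share of all genes.

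The sizes of the differences were small. Over the 37 members the median log2 difference was -0.004 beside 0.02 for all genes, with 18 members above 0 and 19 below it, and the median absolute difference was 0.15 beside 0.13. Differences ran from -0.35 for Sirt5 to 0.42 for Sirt2. The 95% interval of the difference lay within a 1.5-fold change in either direction for 34 members, all but Kat5, Kat8 and Sirt2, and within a 2-fold change for all 37.

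**Figure D1:**
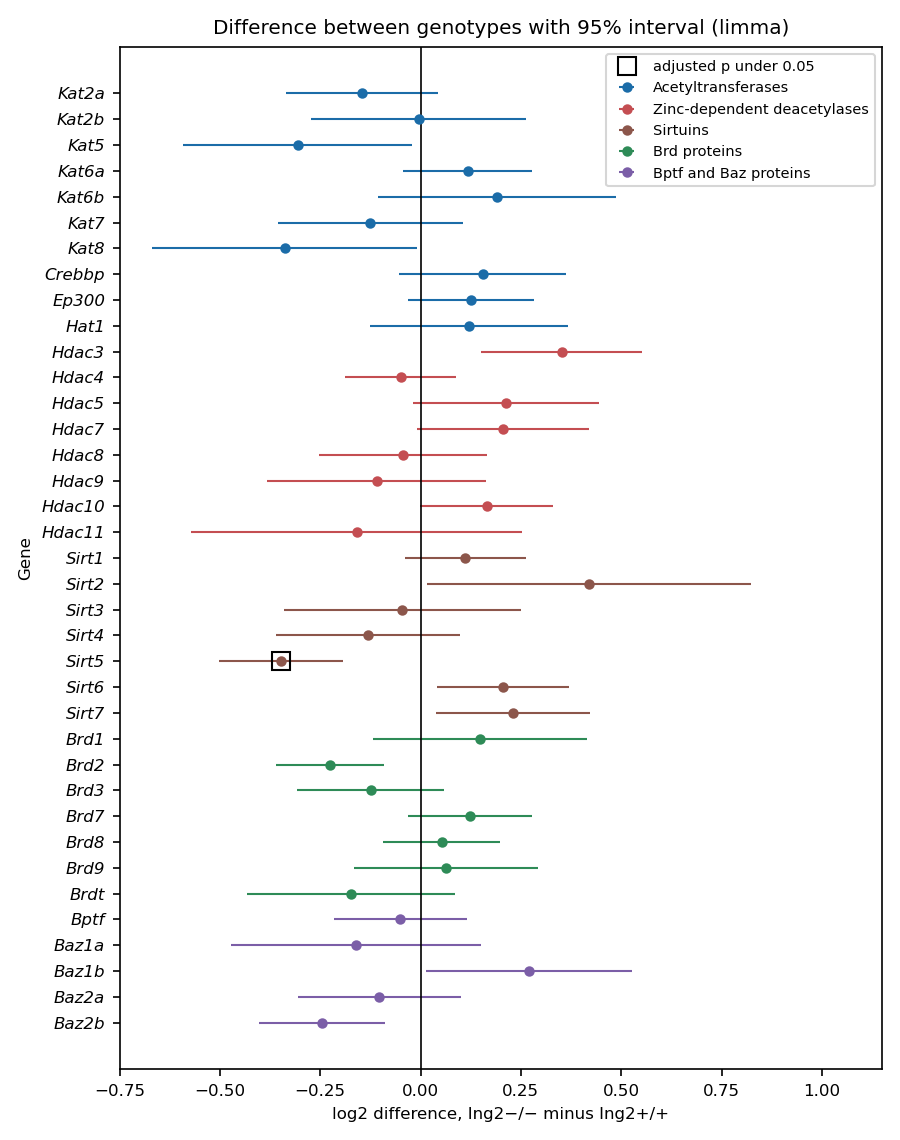
Log2 difference between Ing2-/- (n = 5) and Ing2+/+ (n = 3) testes for each of the 37 members (x axis, points) with the 95% interval from limma (bars), by role. The square marks Sirt5, the member with an adjusted p under 0.05, and the intervals leave out 0 for 10 members, 5 higher and 5 lower.

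Whole testis RNA pools the transcripts of all its cells, and fewer cells of a type cannot be told apart from less RNA per cell. Lists of cell type markers moved with the genotype. Of 15 measured markers of round spermatids 14 lay below 0, with 1 called lower, and their mean level relative to the Ing2+/+ mean was between -0.06 and 0.05 in every Ing2+/+ array and between -0.89 and -0.17 in every Ing2-/- array. All 14 markers of elongating spermatids lay below 0, with 0 called (4 at an unadjusted p under 0.05) and a mean of -0.57 to -0.10 in Ing2-/- arrays. Markers of pachytene spermatocytes had 12 of 13 below 0, 1 of them called, and -0.58 to -0.13. All 22 Sertoli cell markers lay above 0, with 1 called and means from 0.29 to 1.11, and all 8 measured Leydig cell markers did, with 5 called and means from 0.31 to 1.21. Replicate 3 was at the far end of each of these 5 ranges. The medians were 0.08 for 14 spermatogonial markers, with 1 called lower, and 0.35 for 13 markers of macrophages, 0.21 for 10 of endothelial cells and 0.26 for 10 of peritubular myoid cells, with 0, 1 and 0 called higher.

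These shifts bear on how every member is read, since a normalized level only ranks a transcript against the rest of its testis. Making the Sertoli marker medians of the arrays equal takes 1 amount per array from every gene, which moved the median of all genes to -0.61 and that of the members to -0.63. All 37 members then lay below 0 and 30 were called lower, beside 15172 of all genes. When a cell mix measure, the Sertoli marker mean minus the mean of both spermatid marker means, entered the fit as a covariate, 0 members were called and 18 of the 37 differences changed sign. This measure was -2.47 to -2.39 over the Ing2+/+ and -1.95 to -0.59 over the Ing2-/- arrays and so separated the genotypes by itself, and what it takes away cannot be told apart from the genotype. The part of the cell mix in any single difference below was not tested.

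**Figure D2:**
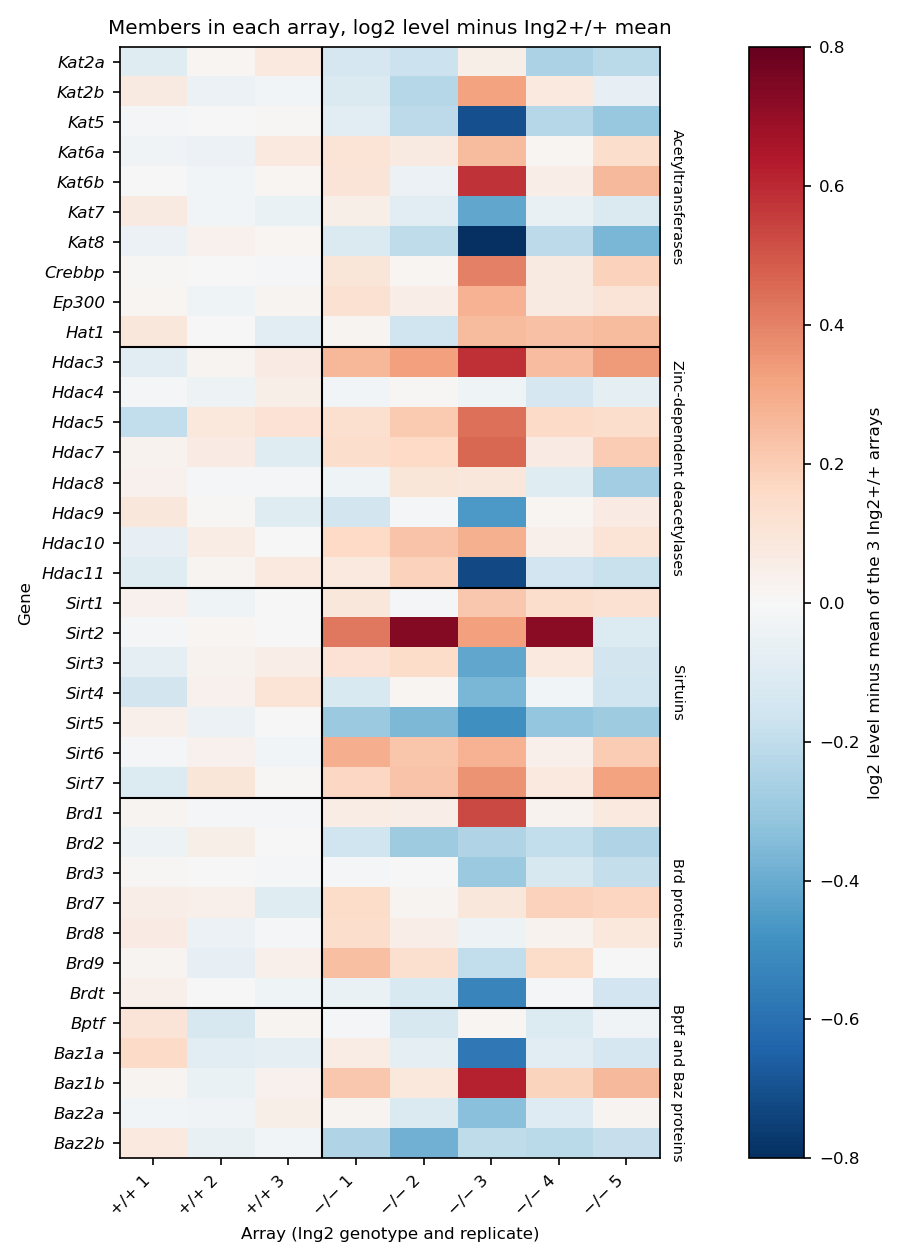
Each member (rows, by role) in each of the 8 arrays (columns, Ing2 genotype and replicate), as its log2 distance from the average Ing2+/+ array, with red above and blue below that mean. Replicate 3 of Ing2-/- holds the deepest colours, with a median absolute distance from the Ing2+/+ mean of 0.33 over the members where the other Ing2-/- arrays had 0.10 to 0.16.

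Among the 10 acetyltransferases 0 were called, with 0 higher and 2 lower at an unadjusted p under 0.05, Kat8 and Kat5, both of the MYST family. Their median difference was 0.06, with 5 above and 5 below 0. Kat8, the acetyltransferase of the MSL and NSL complexes that acetylates histone H4, stood at 10.40, 10.48 and 10.46 in Ing2+/+ animals and 10.33, 10.24, 9.64, 10.24 and 10.08 in Ing2-/- animals. The groups did not overlap, but the lowest array, replicate 3, was 0.80 below the Ing2+/+ mean and the mean of the other 4 only 0.22 below it. The difference was -0.34 (SE 0.145, adjusted p = 0.171 from limma; exact permutation p = 0.0714, two-sided). Kat5, the catalytic subunit of the TIP60 complex that acts in DNA repair, had 9.22, 9.22 and 9.24 in Ing2+/+ animals and 9.13, 9.02, 8.53, 8.996 and 8.93 in Ing2-/- animals. It showed the same arrangement, with no overlap and replicate 3 lowest, 0.70 below the Ing2+/+ mean where the other 4 averaged 0.21 below it. Its difference was -0.31 (SE 0.125, adjusted p = 0.156 from limma). In the fit with the cell mix the differences of Kat8 and Kat5 were 0.06 and 0.02.

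Of the other MYST enzymes, Kat7, the enzyme of HBO1 complexes, had -0.13 (adjusted p = 0.459 from limma). Its lowest array was also replicate 3, 0.41 below the Ing2+/+ mean where the other 4 averaged 0.05 below it, but its groups overlapped, and it was 0.11 in the fit with the cell mix. Kat6a and Kat6b, which acetylate histone H3, had 0.12 and 0.19 (0.313 and 0.379). Kat6b ranged from 7.95 to 8.58 in Ing2-/- arrays while Ing2+/+ arrays kept to 7.98 to 8.02, and its highest value was replicate 3. The paralogous coactivators Crebbp and Ep300 lay higher in all 5 Ing2-/- arrays than in any Ing2+/+ array, by 0.15 (SE 0.0915) and 0.13 (SE 0.0687) on average, without passing the test (adjusted p = 0.306 and 0.268 from limma). For Crebbp the gap between the groups was narrow, with 9.43 as both the highest Ing2+/+ and the lowest Ing2-/- value at this rounding. The GCN5-type enzymes Kat2a and Kat2b, which work in SAGA and ATAC complexes, had -0.15 and -0.004, and Hat1, which acetylates newly made histones before they enter chromatin, had 0.12.

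Of the 8 zinc-dependent deacetylases 0 were called and 1, Hdac3, was higher at an unadjusted p under 0.05. Hdac3, a class I deacetylase that works in nuclear corepressor complexes, had 9.72, 9.83 and 9.88 in Ing2+/+ animals and 10.07, 10.13, 10.39, 10.06 and 10.15 in Ing2-/- animals. All Ing2-/- testes were above all Ing2+/+ testes, replicate 3 highest. The difference was 0.35 (SE 0.0886, 95% interval 0.15 to 0.55), a level 1.28 times as high, with an adjusted p of 0.0562 from limma and an exact two-sided permutation p of 0.0179, the smallest that 3 against 5 arrays can give. Leaving out 1 array kept it between 0.29 and 0.39. It was called without Ing2-/- replicate 3 (0.29, adjusted p = 0.0209 from limma), and in the fit with the cell mix it was 0.16 (0.451).

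The class IIa deacetylases, which shuttle between nucleus and cytoplasm and bind MEF2 factors, differed among themselves. Hdac5 was 7.27, 7.55 and 7.58 in Ing2+/+ and from 7.59 to 7.90, with a median of 7.62, in Ing2-/- testes. Its groups touched without overlapping, replicate 1 of Ing2+/+ being far below the others of its group, and the difference was 0.21 (adjusted p = 0.210 from limma). Hdac7 had the same difference of 0.21 (0.196) with overlapping groups. Hdac4 and Hdac9 had -0.05 and -0.11, and the dimmer probe set of Hdac4 had 0.02. In class IIb, Hdac10, known as a polyamine deacetylase, had 0.16 (0.182). Hdac11, the sole class IV enzyme, averaged -0.16 with the widest spread of any member, 8.46 ± 0.35 (SD, n = 5) in Ing2-/- testes. Its value in replicate 3 was 7.89, while the other 4 ran from 8.43 to 8.80 around an Ing2+/+ mean of 8.61. Hdac8, a class I enzyme, was 5.50 ± 0.03 (SD, n = 3) and 5.46 ± 0.15 (SD, n = 5), near background, and gives no usable difference.

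The sirtuins held the called member and the largest positive difference. Of the 7, 0 were called higher and 1 lower, with 3 higher and 1 lower at an unadjusted p under 0.05 and a median of 0.11. Sirt5, which removes succinyl, malonyl and glutaryl groups from lysines of mitochondrial enzymes and has little deacetylase activity, had 6.59, 6.50 and 6.55 in Ing2+/+ animals and 6.25, 6.19, 6.06, 6.24 and 6.27 in Ing2-/- animals. No Ing2-/- array reached the lowest Ing2+/+ array, and without replicate 3, the lowest, the others lay between 6.19 and 6.27. It fell by 21.4% on the linear scale, or by 0.35 on the log2 scale (SE 0.0682, 95% interval -0.50 to -0.19, adjusted p = 0.0308 from limma; exact permutation p = 0.0179, two-sided). The size held whichever array was left out, from -0.37 to -0.31, but the call did not. Without any single Ing2+/+ array its adjusted p from limma was 0.102 to 0.133, without Ing2-/- replicate 1, 2 or 5 it was 0.0523, 0.0542 and 0.0687, and without replicate 3 or 4 it was 0.0127 and 0.0404. In the fit with the cell mix the difference was -0.24 (adjusted p = 0.224 from limma).

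Sirt2, a mainly cytoplasmic sirtuin that deacetylates tubulin and, at mitosis, histone H4, had 9.82, 9.85 and 9.84 in Ing2+/+ animals and 10.26, 10.58, 10.16, 10.56 and 9.73 in Ing2-/- animals. It was above the Ing2+/+ arrays in 4 Ing2-/- testes and below all of them in replicate 5. The mean difference of 0.42 (SE 0.178) was the largest of any member, but its spread in Ing2-/- was 0.35 (SD, n = 5) against 0.02 (SD, n = 3) in Ing2+/+, and it did not pass the test (adjusted p = 0.167 from limma; exact permutation p = 0.107, two-sided). It was 0.55 (adjusted p = 0.0715) without replicate 5. Replicate 3 was not at the end of its range, nor was it for Brd2 or Baz2b.

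The nuclear Sirt6 and the nucleolar Sirt7 had 0.21 (SE 0.0724, adjusted p = 0.112 from limma) and 0.23 (SE 0.0846, adjusted p = 0.124). Sirt6 was 6.46 to 6.52 in Ing2+/+ and 6.52 to 6.77, with a median of 6.70, in Ing2-/- testes, and the groups did not overlap. For Sirt7 1 Ing2-/- array at 7.15 lay below the highest Ing2+/+ array at 7.17. Sirt1, the best known nuclear sirtuin, had 0.11, and the other mitochondrial sirtuins Sirt3 and Sirt4 had -0.05 and -0.13. None of these 5 was called.

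**Figure D3:**
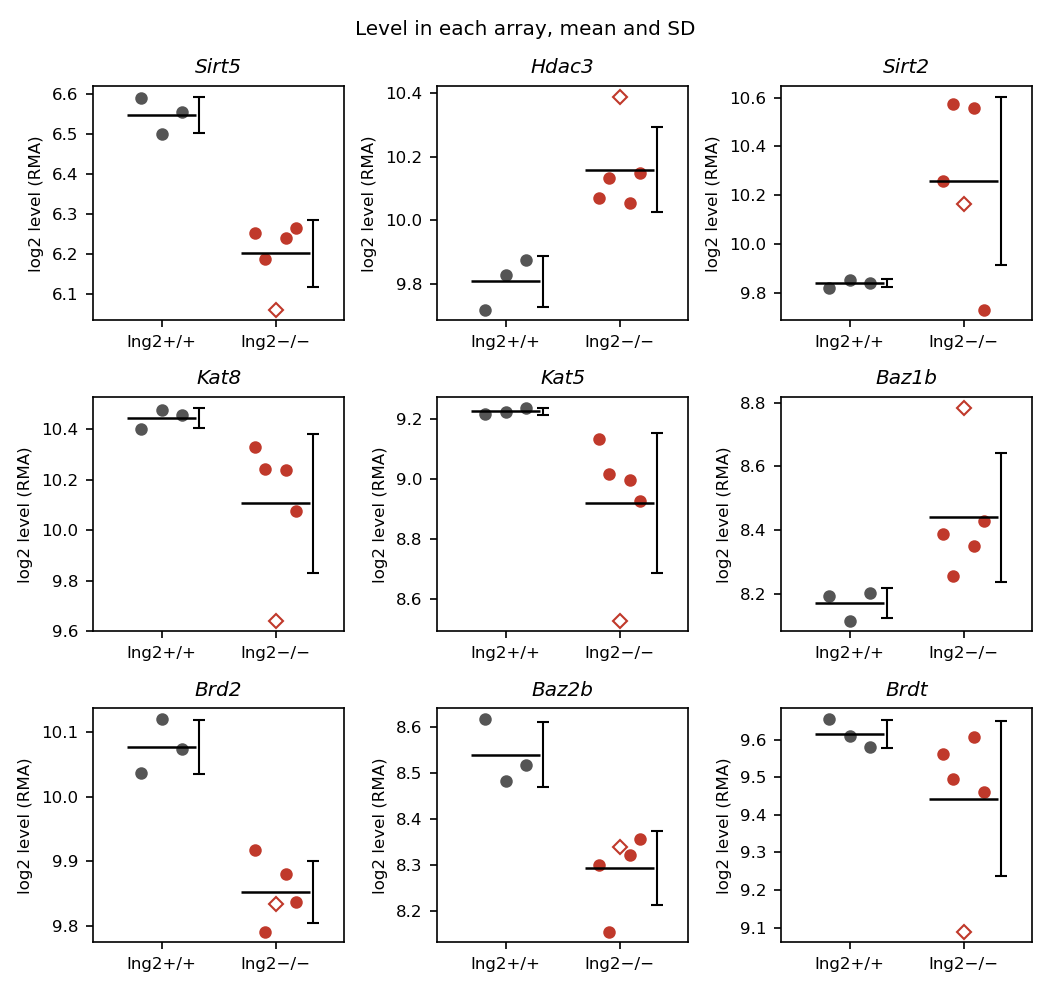
Log2 level (y axis, RMA) of 9 members in each Ing2+/+ (grey, n = 3) and Ing2-/- (red, n = 5) testis, with the mean (line) and SD (bar). The open diamond is Ing2-/- replicate 3, which is the lowest for Kat8 (9.64), Kat5 (8.53) and Brdt (9.09) and the highest for Baz1b (8.78) and Hdac3 (10.39), but lies within the range of the other Ing2-/- testes for Sirt2, Brd2 and Baz2b.

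Of the 7 Brd proteins 0 were called, and 0 were higher and 1, Brd2, lower at an unadjusted p under 0.05. Brd2 and Baz2b are given array by array because their p-values came after that of Hdac3, a choice made after their values were seen. Brd2, a BET protein that binds acetylated histone H4, had 10.04, 10.12 and 10.07 in Ing2+/+ animals and 9.92, 9.79, 9.83, 9.88 and 9.84 in Ing2-/- animals. Both groups were tight, and no array of one reached the other. The difference was -0.23 (SE 0.0590, 95% interval -0.36 to -0.09, adjusted p = 0.0612 from limma), from -0.25 to -0.20 with 1 array left out. It was called without Ing2-/- replicate 3 (-0.22, adjusted p = 0.0406 from limma), and it was -0.21 in the fit with the cell mix (adjusted p = 0.293).

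Brdt, the BET protein made in spermatocytes and spermatids, had 9.66, 9.61 and 9.58 in Ing2+/+ animals and 9.56, 9.50, 9.09, 9.61 and 9.46 in Ing2-/- animals. The groups overlapped, and replicate 3 at 9.09 was far below the other 4. The difference was -0.17 (SE 0.114, adjusted p = 0.359 from limma) and -0.08 without that array (adjusted p = 0.406). By comparison, the lists of round and elongating spermatid markers had medians of -0.42 and -0.21. The third BET member, Brd3, had -0.12 (adjusted p = 0.352 from limma). Brd1, a scaffold of acetyltransferase complexes, had 0.15 with replicate 3 at 9.37 and the other 4 from 8.86 to 8.91, so that the mean of those 4 was only 0.05 above that of Ing2+/+. Brd7 and Brd9, subunits of SWI/SNF remodellers, had 0.12 and 0.06, and Brd8, of the TIP60 complex, had 0.05.

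Bptf and the Baz proteins are large subunits of ISWI-type remodelling complexes, with 0 of 5 called and 1 higher and 1 lower at an unadjusted p under 0.05. Baz2b had 8.62, 8.48 and 8.52 in Ing2+/+ animals and 8.30, 8.15, 8.34, 8.32 and 8.36 in Ing2-/- animals. All Ing2-/- testes were lower, replicate 2 lowest. Its difference was -0.25 (SE 0.0698, 95% interval -0.40 to -0.09, adjusted p = 0.0733 from limma), it was called without replicate 3 (-0.26, adjusted p = 0.0452), and it was -0.30 in the fit with the cell mix (adjusted p = 0.209). Its paralogue Baz2a, the TIP5 subunit of the nucleolar remodelling complex, had -0.10. Baz1b, the WSTF protein, had 8.19, 8.12 and 8.20 in Ing2+/+ animals and 8.39, 8.25, 8.78, 8.35 and 8.43 in Ing2-/- animals. The groups did not overlap, and replicate 3 carried much of the difference of 0.27 (SE 0.113, adjusted p = 0.164 from limma), which was 0.18 without it and -0.02 in the fit with the cell mix. Baz1a, the ACF1 subunit, had -0.16 with 9.66 in replicate 3 against 10.09 to 10.29 in the others. Bptf had -0.05, and its dimmer probe set -0.09.

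Ing2-/- replicate 3 carried much of the spread of these genes. It was the Ing2-/- array farthest from the Ing2+/+ mean for 26 of the 37 members, or 70.3%, where this held for 55.5% of all genes. The median SD over the members was 0.06 in Ing2+/+ and 0.15 in Ing2-/- testes, and 0.08 in Ing2-/- testes without replicate 3. It lay on the same side of the Ing2+/+ mean as the mean of the other 4 for 30 members. For 15 members it lay more than 0.3 from the mean of the other 4, higher for 6 and lower for 9. Among the 9 were Hdac11, Kat8, Kat5, Baz1a and Brdt, and among the 6 were Kat6b, Brd1 and Baz1b. The same array had the lowest mean of round spermatid markers, -0.89, where the other 4 ran from -0.35 to -0.17, and the highest of Sertoli markers, 1.11, where they ran from 0.29 to 0.51. The part of these cells in the values of replicate 3 was not tested.

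**Figure D4:**
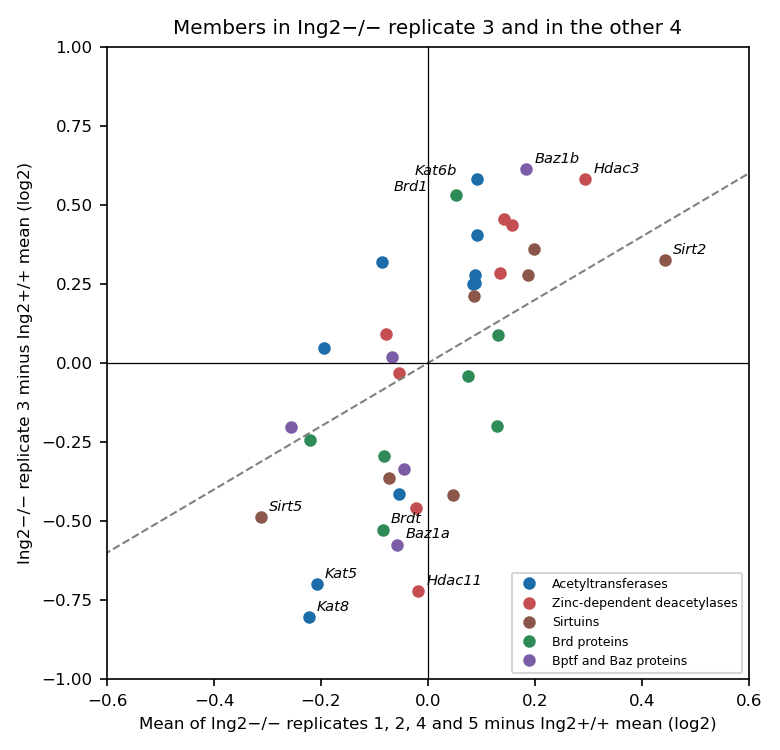
Each member by its distance from the Ing2+/+ mean in Ing2-/- replicates 1, 2, 4 and 5 (x axis, mean) and in replicate 3 (y axis), both on the log2 scale, coloured by role, with equal distances on the dashed line. Of the 37 members 30 lie farther from 0 in replicate 3, as Kat8 does (-0.80 against -0.22). A mean of 4 arrays spreads less than a single array, so this count does not by itself set replicate 3 apart. Brd2 (-0.24 against -0.22) lies close to the line.

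Without that array limma called 4 members, Hdac3 higher and Sirt5, Brd2 and Baz2b lower, or 10.8%, where it called 16.5% of all genes. These 4 had adjusted p-values of 0.0209, 0.0127, 0.0406 and 0.0452. Kat8 and Kat5 came close, with -0.22 (adjusted p = 0.0749 from limma) and -0.21 (0.0669), and Sirt2 had 0.44 (0.163).

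A further 8 lists held other genes of histone acetylation, deacetylase partners, genes of acetyl-CoA and NAD supply, and genes of spermatid chromatin. Over these lists limma called 4 of 107 measured genes, or 3.74%, beside 4.97% of all genes. The deacetylases left out of the 37 were measured too. Hdac1, of the Sin3 complexes, was 10.86, 10.92 and 10.89 in Ing2+/+ animals and 10.82, 10.82, 10.64, 10.90 and 10.81 in Ing2-/- animals. The groups overlapped, and the difference was -0.09 (adjusted p = 0.442 from limma). These are levels of RNA in whole testes, whereas the paper reported less HDAC1 protein in Ing2-/- testes by Western blot. By immunostaining it also found no significant HDAC1 in Ing2-/- spermatocytes, whose histones stayed acetylated at the sites it stained. Its blots and stained sections were from mice 8 weeks of age. Hdac2, the partner of Hdac1, had 0.36 (0.0685) and the tubulin deacetylase Hdac6 had 0.73 (0.0714), both with no overlap. Hdac6 was 9.03 to 9.21 in Ing2+/+ and 9.51 to 10.50 in Ing2-/- testes, replicate 3 highest. Of 10 further acetyltransferases 0 were called, with 4 higher and 2 lower at an unadjusted p under 0.05, led by Gtf3c4 (-0.39, adjusted p = 0.0605 from limma) and Taf1 (0.57, 0.0870).

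Among 39 subunits of acetyltransferase complexes 0 were called higher and 1 lower, with 7 higher and 14 lower at an unadjusted p under 0.05 and a median of -0.16. The called one was Ing3, the ING protein of the TIP60 complex, with 8.70, 8.73 and 8.64 in Ing2+/+ animals and 8.22, 8.18, 8.12, 8.44 and 8.30 in Ing2-/- animals. It fell by 0.44 on the log2 scale (SE 0.0811, adjusted p = 0.0258 from limma) and was called without Ing2-/- replicate 2, 3 or 4 but not without any of the other 5 arrays (adjusted p up to 0.117). Of the 7 measured partners of Hdac3 and the class IIa deacetylases 0 were called and 4 were higher at an unadjusted p under 0.05, with a median of 0.25. Cabin1 (0.25, adjusted p = 0.0879 from limma) and Mef2d (0.30, 0.0934) had the smallest p.

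Of 20 other measured bromodomain proteins 1 was called higher and 1 lower, with a median of -0.06. The methyltransferase Kmt2a rose by 0.60 (SE 0.133, adjusted p = 0.0428 from limma), and Cecr2, the remodelling subunit known for its expression in the testis, fell by 0.46 on the log2 scale (SE 0.0930, adjusted p = 0.0342). Of 4 YEATS-domain readers of acetylated or crotonylated lysine 0 were called, with 3 lower at an unadjusted p under 0.05, Yeats4 (-0.28, 0.102) and Mllt1 (-0.46, 0.131) having the smallest p. Of 15 measured genes that make or use acetyl-CoA or NAD, the cosubstrates of these enzymes, 1 was called higher and 0 lower. In this list, which also holds genes that use NAD, such as Parp1 and Nadk, 13 lay above 0, with a median of 0.24. The called gene was Acss1, the mitochondrial acetyl-CoA synthetase, which rose by 0.93 (SE 0.218, adjusted p = 0.0476 from limma). Kmt2a, Cecr2 and Acss1 were called without Ing2-/- replicate 3 or 4 but not without any of the other 6 arrays (adjusted p up to 0.148, 0.125 and 0.174). In the fit with the cell mix Ing3, Kmt2a, Cecr2 and Acss1 had -0.34, 0.24, -0.27 and 0.35, none of them called. Of 12 measured genes of spermatid chromatin 0 were called, with a median of -0.18. At an unadjusted p under 0.05, 2 were lower, Chd5 (-0.54, adjusted p = 0.0903 from limma) and H1f7 (-0.41, 0.163). Some of these lists share Taf1, Brpf1 and Brpf3.

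**Figure D5:**
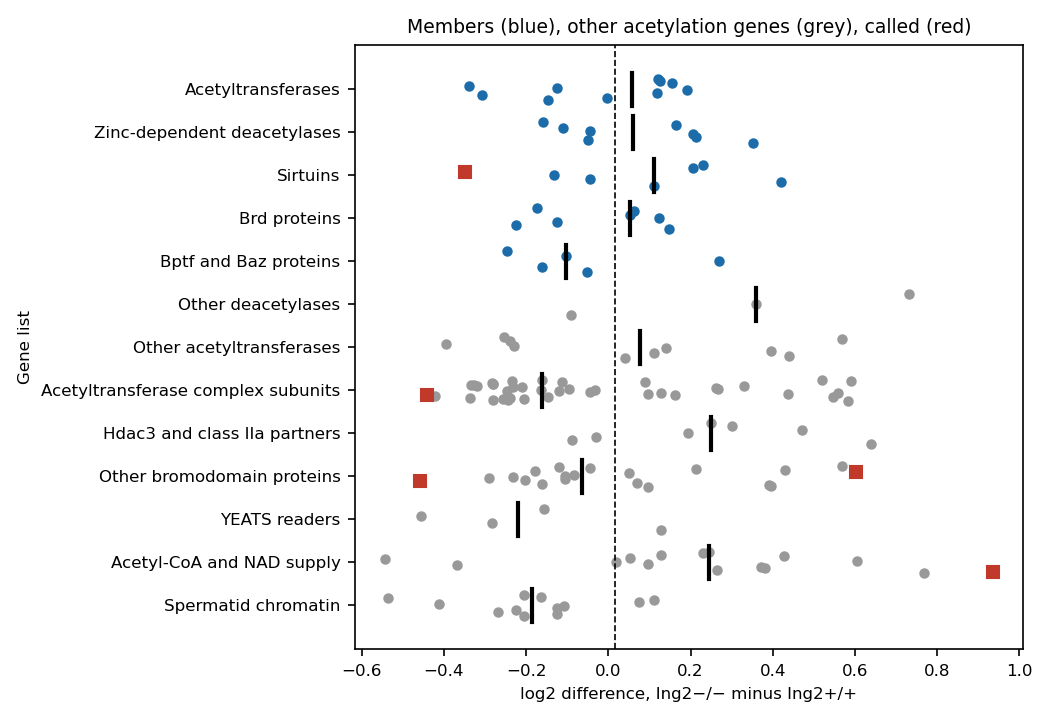
Log2 difference between Ing2-/- and Ing2+/+ testes (x axis) for each measured gene of the 5 groups of members (blue) and of 8 other lists (grey). Genes called by limma are red squares, list medians are black bars, and the dashed line is the median of all genes, 0.02. All members lie between -0.35 and 0.42, while Hdac6 reaches 0.73 and Acss1 0.93.

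The start of a gene is among the places where acetylation and its readers act. The 250 bases before the RefSeq transcription start (GRCm38.p6) were read for the 32 members that the promoter table holds. The sequences of 3 are shown, Sirt5 as the called member, Baz2b as the member that holds a full cAMP response element, the letters that CREM binds in spermatids, and Brdt as the germ cell member. Capitals mark 4 short motifs on either strand, which were chosen after the sequences were seen, the cAMP response element TGACGTCA, the E-box CACGTG, the GC box GGGCGG and the CCAAT box.
Sirt5, chr13:43365285-43365534, plus strand: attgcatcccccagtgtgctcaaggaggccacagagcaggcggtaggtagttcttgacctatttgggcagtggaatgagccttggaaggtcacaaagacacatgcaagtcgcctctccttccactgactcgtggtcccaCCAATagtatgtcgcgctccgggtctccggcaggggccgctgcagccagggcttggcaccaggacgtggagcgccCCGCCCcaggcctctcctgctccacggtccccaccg
Baz2b, chr2:60125741-60125990, minus strand: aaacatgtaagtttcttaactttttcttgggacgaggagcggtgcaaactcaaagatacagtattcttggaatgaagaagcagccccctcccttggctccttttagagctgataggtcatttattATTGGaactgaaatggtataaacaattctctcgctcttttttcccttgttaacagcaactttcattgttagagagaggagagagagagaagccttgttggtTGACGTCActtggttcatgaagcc
Brdt, chr5:107330944-107331193, plus strand: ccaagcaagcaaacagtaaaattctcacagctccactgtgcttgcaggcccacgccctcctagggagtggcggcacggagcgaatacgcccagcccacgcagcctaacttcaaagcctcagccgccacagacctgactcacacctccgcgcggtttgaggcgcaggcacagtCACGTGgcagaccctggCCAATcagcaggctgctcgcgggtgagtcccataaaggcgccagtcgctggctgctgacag
The Sirt5 stretch holds a CCAAT box at 111 to 107 bases before the start and a GC box, on the other strand, at 36 to 31, and 62.8% of it is G or C. The stretch of Baz2b, 41.2% G or C, holds the cAMP response element at 24 to 17 bases before the start and a CCAAT box, on the other strand, at 125 to 121. The Brdt stretch, 62.4% G or C, holds an E-box at 78 to 73 and a CCAAT box at 61 to 57. The cAMP response element was in 1 of the 32 member promoters and in 1.55% of all 32851 promoters of the same length. The E-box was in 5 of the 32 and in 6.02% of all, the GC box in 24 of the 32 and in 32.7% of all, and the CCAAT box in 15 of the 32 and in 33.8% of all. The E-box, the GC box and the CCAAT box were thus in a larger share of the 32 than of all promoters, a difference that was not tested. A match of letters is no evidence of binding, and these arrays do not measure acetylation or binding at any of these starts.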

How the data were processed

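Testis RNA of 3 Ing2+/+ and of 5 Ing2-/- mice was measured with 1 array for each mouse. The deposited values are log2 levels that the authors obtained by RMA normalization in Affymetrix Expression Console (version not given in the sources used here). Because RMA normalizes the arrays to each other, total RNA per testis cannot be read from the values. The platform annotation gave exactly 1 symbol to 21789 probe sets, and for 21698 of these the symbol was brought up to date by gene identifier from RefSeq's GRCm38.p6 table. The brightest probe set stands for a gene.

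The test was that of limma 3.58.1 (R 4.3.3), lmFit followed by eBayes without a covariate, on all 35557 probe sets at once. A probe set was called when its Benjamini-Hochberg adjusted p was under 0.05. Limma stands in for the random variance model of the methods, which was run as an alternative. Single members were also compared by exact permutation over the 56 ways to draw 3 of 8 arrays. The fit was tested on simulated data. How precise a difference can be depends here on how few arrays there are.

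The members, the lists of other genes and of cell type markers, and the alternatives were chosen with earlier results of these data known. Values are given array by array for called members, for the 3 largest increases and decreases and for Brdt. From each list of other genes, markers aside, the called genes are named, or in lists without a call the 2 genes of lowest p. Some genes of the lists, among them Ash1l, Cd38, H1f9, Rnf8, Insl3, Lhcgr, Fdxr and Srd5a1, were not analysed here. Promoters came from RefSeq, and the 250 bases before each start were searched on both strands, for 32 of the 37 members. Summaries and plots were made in Python 3.11.15 with matplotlib 3.10.9.

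Settings varied 1 at a time were the arrays (each omitted in turn, or weighted by limma), a replicate block, the probe sets tested (those brighter than the median probe set, or those with 1 symbol), the normalization (cyclic loess after RMA, or Sertoli marker medians made equal), the variance estimate (the random variance model, no sharing between probe sets, or a robust fit with a trend in intensity), averaging over the probe sets of a gene, an unadjusted p under 0.001 as in the methods, and a covariate for the cell mix.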

Additional observations from a re-analysis of the deposited data

Results flagged for a closer look

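In 5 of the 37 members 1 of the 5 Ing2-/- arrays lay far from the rest, which was judged by its gap to the nearest other array as a share of the whole range of the group. Chance alone marks about 1 in 20 groups by this measure. It was taken over the 37 members only, so the share over all genes is not known and no excess among the members can be read from it. In 4 of the 5 the array was replicate 3, which was also the Ing2-/- array farthest from the Ing2+/+ mean for 55.5% of all genes. Replicate 3 was the highest array for Brd1, with a gap of 0.899 of the range, for Hdac5 (0.729) and for Hdac3 (0.723), and the lowest for Brdt (0.72). For Baz2b the array was replicate 2, the lowest, with a gap of 0.718. Replicate 3 also had the lowest round spermatid and the highest Sertoli marker means of the series, and their part in these gaps was not tested.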

How the results depend on the processing

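The number of arrays limits these results, and the signal of Hdac8 was near background. Leaving out 1 array gave 0 to 1 members called higher, 0 to 3 called lower and a median difference from -0.027 to 0.048. With all arrays these were 0, 1 and -0.004. The groups did not overlap for 13 to 16 members, against 12 with all arrays, but leaving out an array can only remove overlap. Over all genes this count rose too, from 3337 higher and 2964 lower to 3967 and 3578 without Ing2+/+ replicate 1. Leaving out Ing2-/- replicate 3 gave the high ends of both counts of calls (Hdac3 higher, and Sirt5, Brd2 and Baz2b lower). Without it 3284 of all genes were called, against 991.

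The replicate numbers of the genotypes do not come from shared animals, and deviations from the group means correlated at -0.06, 0.18 and 0.006 for numbers 1, 2 and 3, so the numbers were not taken as pairs. With the replicate block 0 members were called lower, among 0 of all genes, Sirt5 had -0.38 (adjusted p = 0.138 from limma), the median of the members was 0.038 and Hdac8 turned to 0.052. Above the median level 34 members remained, without Sirt5, and their median was 0.058. Of them 1 was called higher (Hdac3) and 0 lower, or 2.94% beside 11.6% of the genes at that level. Only probe sets with 1 symbol gave 1 higher (Hdac3) and 2 lower (Brd2, Sirt5), or 8.11% beside 8.26% of all genes. Array weights gave 1 higher (Hdac3) and 3 lower (Baz2b, Brd2, Sirt5), or 10.8% beside 20.6% of all genes. The variance of each probe set alone gave 0 lower, Sirt5 having an adjusted p of 0.0615, beside 0.713% of all genes called. Cyclic loess gave a median of -0.043. An equal Sertoli median gave 30 members lower, or 81.1% beside 76.2% of all genes, and a median of -0.63. There 35 members had no overlap, beside 17256 lower and 46 higher of all 19920 genes. The cell mix as a covariate gave 0 lower, beside 0.452% of all genes called, and a median of 0.034. Sirt5 was called under the random variance model, the trend with robust estimation, cyclic loess and the mean of all probe sets. The cause of these changes was not tested.

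Of the values of single members under alternatives, 656 kept their direction and side of the threshold, 27 gained a call, 9 lost one, all for Sirt5, and 45 changed sign, 11 of these being also called with an equal Sertoli median, so that 38 gained a call in all. With the cell mix as a covariate the sign changed for Kat5 (0.023), Kat6b (-0.16), Kat7 (0.11), Kat8 (0.060), Crebbp (-0.068), Ep300 (-0.00029), Hat1 (-0.027), Hdac7 (-0.012), Hdac9 (0.15), Hdac11 (0.33), Sirt3 (0.30), Sirt4 (0.084), Brd1 (-0.16), Brd3 (0.034), Brdt (0.12), Baz1a (0.18), Baz1b (-0.023) and Baz2a (0.067). With an equal Sertoli median all 18 positive members changed sign, Kat6a (-0.51), Kat6b (-0.44), Crebbp (-0.47), Ep300 (-0.50), Hat1 (-0.50), Hdac3 (-0.27), Hdac5 (-0.41), Hdac7 (-0.42), Hdac10 (-0.46), Sirt1 (-0.51), Sirt2 (-0.21), Sirt6 (-0.42), Sirt7 (-0.39), Brd1 (-0.48), Brd7 (-0.50), Brd8 (-0.57), Brd9 (-0.56) and Baz1b (-0.36). Members near 0 changed sign when 1 array was left out, Kat2b (from -0.085 to 0.052, above 0 without Ing2+/+ replicate 1 or Ing2-/- replicate 1, 2 or 5), Bptf (from -0.11 to 0.0020, without Ing2+/+ replicate 1), Sirt3 (from -0.094 to 0.048, without Ing2-/- replicate 3, and 0.016 with array weights) and Hdac8 (from -0.079 to 0.015, without Ing2-/- replicate 5).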
